A study of Mus musculus with 4 samples.

Results

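The kinesin, dynein and myosin motor genes were taken as every peak whose gene symbol begins with Kif, Klc, Dync, Dctn, Myh or Myo (followed by a number, except for Dync). The rule held 286 of the 33977 deposited peaks and 65 of the 10415 genes. Kinesins and kinesin light chains had 128 peaks in 28 genes (25 Kif and 3 Klc), dynein and dynactin had 26 peaks in 11 genes (6 Dync and 5 Dctn), and myosins had 132 peaks in 26 genes (11 Myh and 15 Myo). The rule also takes in Kif1bp, now named Kifbp, a protein that binds kinesins and is no motor itself. Of the 65 symbols, 64 matched RefSeq (GRCm38.p6) directly and 1, Kif1bp, matched as a synonym.

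Motor proteins turn the energy of ATP into movement along the cytoskeleton. Most kinesins walk toward the plus ends of microtubules, which in axons point away from the cell body, and carry vesicles, mitochondria and RNA granules outward. Cytoplasmic dynein works with dynactin and walks the other way, bringing endosomes and signals back, while myosins pull on actin filaments in spines, growth cones, muscle and vessel walls.

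The cortex of mice was profiled by MeRIP-seq, which enriches pieces of RNA that bear N6-methyladenosine (m6A, a methyl group on adenosine) with an antibody and then reads them. One group had a sham procedure and the other had repetitive mild traumatic brain injury (rmTBI), with 2 libraries each, numbered 0 and 1 in the labels. All 4 libraries were made with the anti-m6A antibody from total RNA extracted with TRIzol. The sources used here do not give strain, age, injury protocol, time after injury or number of mice. Libraries without the antibody were not analysed here, so higher or lower counts at a peak may reflect methylation or transcript abundance. Nor can fewer cells of a type be told apart from less RNA per cell. Since the labels name no separate mice, p-values cover the spread between libraries alone, and that spread may be technical.

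The libraries held from 13753600 to 26888072 counts at peaks, and motor genes took from 1.93% to 2.30% of them. A motor peak had a median of 278 (library 0) and 450 counts (library 1) in sham and of 265 (library 0) and 507 (library 1) in rmTBI. All 9 listed markers of cortical excitatory neurons had peaks. The libraries also differed in markers of other cell types. The 7 measured thalamic markers lay lower in rmTBI, with a median log2 fold of -2.77 (4 called by edgeR, 6 by DESeq2). The 7 striatal markers also lay lower, with a median of -0.998 (0 called by edgeR, with 6 at an unadjusted p under 0.05, and 2 called by DESeq2). So did the 11 measured oligodendrocyte markers, with a median of -0.80, while 8 of the 9 cortical excitatory markers lay higher, with a median of 0.56. Neither tool called any of these last 2 lists, and edgeR gave 9 oligodendrocyte and 4 cortical markers at an unadjusted p under 0.05. Of all genes tested, edgeR called 0.127% and DESeq2 0.656%, and 3.59% had an unadjusted p under 0.05 by edgeR.

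Some motor transcripts had a peak over the RefSeq start of the gene. Stretches of their first 50 bases are shown because they hold the GGAC core of the m6A consensus, searched on the transcribed strand alone. A peak covered 10 RefSeq starts of 8 motor genes, and 3 of the 10 windows of 50 transcribed bases held GGAC (2 genes, Dync1i2 and Myo16), against 18.9% of the 32851 windows in the RefSeq table of gene starts. Some of these peaks are long and reach far beyond the start, such as one of Myo18a from 77777839 to 77807803 of chromosome 11. The sequences below are 30 transcribed bases around the match, from RefSeq GRCm38.p6 on the plus strand, with GGAC in capitals; a match is a description and no measured site. The first 2 lie within a peak of Dync1i2 that the deposited table classes as coding, and the third lies within a 5' UTR peak of Myo16.
Dync1i2, chr2:71211706-71211735: gGGACttgaagttctctggaggtattgagg
Dync1i2, second start, chr2:71211966-71211995: ctctttgtgtgcttgGGACgccgcggatct
Myo16, chr8:10153930-10153959: cgggagggcgccaGGACcaggcgaccgccc

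GGAC began at base 2 and base 36 after the respective starts of Dync1i2 and at base 33 after the start of Myo16. The peaks of Dync1i2 (at its first start), Myo16, Kif1bp and Dctn5, a dynactin pointed-end subunit, had an edge within 1 base of the RefSeq start. At its start peak, Dync1i2 had 122 and 102 CPM in sham libraries 0 and 1 and 133 and 93.1 CPM in rmTBI libraries 0 and 1 (log2 fold 0.01, SE 0.26), and the groups overlapped. This peak runs from 71211705 to 71219322 of chromosome 2, so its counts are not those of the start alone. The start peak of Myo16 had 0.998 and 0.622 CPM in sham and 0.606 and 1.08 CPM in rmTBI (log2 fold 0.14, SE 0.66), which also overlapped.

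For rmTBI against sham, no motor gene passed the test. Gene values are counts summed over 1 peak per group of overlapping peaks, as CPM (counts scaled to the library's TMM-adjusted total). Peak values are CPM over all peaks, a separate scale, and neither scale is per length, so levels are not compared between genes. By edgeR's quasi-likelihood test with Benjamini-Hochberg adjustment, 0 of the 63 motor genes tested had an adjusted p under 0.05, against 0.127% of all 10214 genes, and 0 of the 283 motor peaks tested did, against 0.0868% of all 33415 peaks. DESeq2 also called 0 motor genes and 0 motor peaks, against 0.656% of all genes and 0.401% of all peaks. Kif11 and Myo1h, and 1 peak each of Kif11, Kif26b and Myo1h, were too low to be tested.

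At an unadjusted p under 0.05, 1 motor gene lay higher in rmTBI (Myh3) against 1.01% of all genes, and 3 lay lower (Myh14, Myh15 and Myo5c) against 2.58%. All 4 are myosins, and in both directions together 3.59% of all genes reached this level. Among motor peaks, 2 of Myo16 lay higher, against 0.73% of all peaks, and 6 lay lower, against 2.11%: 4 of Myh14, 1 of Myh15 and 1 of Kif27. In both directions together, 2.84% of all peaks did. DESeq2 gave 1 motor gene (Myh14) and 4 motor peaks at the same unadjusted level, against 315 of all 10214 genes and 734 of all 33415 peaks.

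The median gene-level log2 fold was -0.03 over the 63 motor genes, with 30 above 0 and 33 below, and 0.01 over all genes. Of the motor genes, 37 (58.7%) lay within 0.25 of 0 on the log2 scale, as did 66.8% of all genes. The 4 libraries separated by group for 24 of the 63 motor genes (38.1%, against 25.5% of all genes). Of these, 12 lay higher in rmTBI, as did 12.5% of all genes, and 12 lay lower, as did 13% of all genes. Of the myosins tested, 56.0% separated in this way, against 33.3% of the kinesins, 9.09% of dynein and dynactin and 25.5% of all genes. With 2 libraries per group such separation is frequent, as the share over all genes shows. Among the separated myosins, Myh1, Myh8 and Myo3b had low means of 1.24, 1.53 and 2.09 CPM over the libraries.

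**Figure D1:**
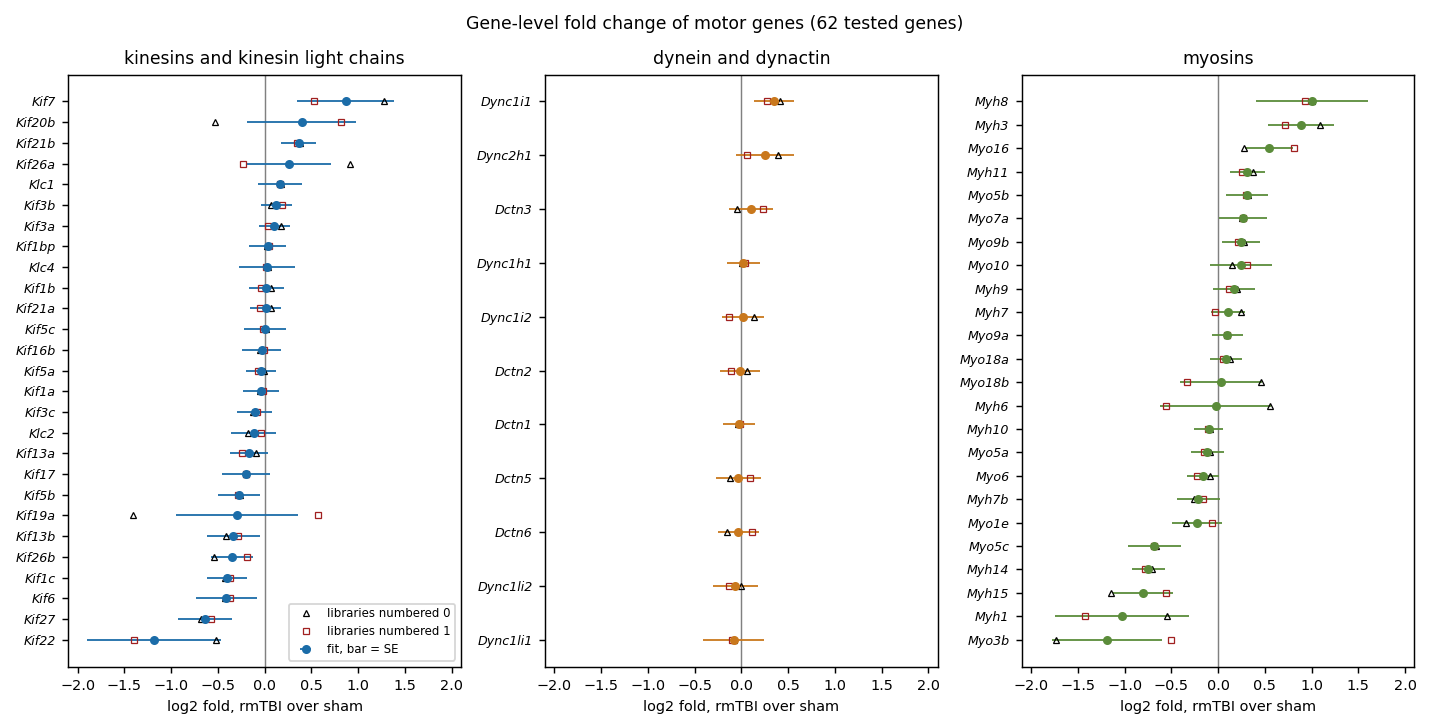
Gene-level log2 fold of rmTBI over sham for 62 of the 63 motor genes tested, in 3 panels for kinesins with their light chains, dynein with dynactin, and myosins. Filled circles are the edgeR estimate with its SE as a bar, open triangles the ratio of the libraries numbered 0 and open squares that of the libraries numbered 1; most dynein and dynactin genes lie close to 0, and Myh14 lies at -0.75 with both symbols beside the estimate.

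Among the kinesins, the neuronal transport motors stood close to their sham values, and, with a mean of at least 5 CPM, the genes farthest from 0 were Kif21b on the higher side and Kif27, Kif6 and Kif1c on the lower. The median log2 fold of the 27 genes tested was -0.03 (interquartile range -0.28 to 0.07), with 12 above 0 and 15 below. With each library left out in turn, this median moved between -0.20 (without rmTBI library 0) and 0.07 (without sham library 0). The groups did not overlap for 4 genes that lay higher and 5 that lay lower (33.3% of the 27, against 25.5% of all genes). The edgeR quasi-likelihood test called 0 of the 27 genes, with 0 at an unadjusted p under 0.05, and 0 of 126 peaks.

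Kinesin-1 is the main motor of fast axonal transport, and its heavy chains are Kif5a, Kif5b and Kif5c. Kif5a, mutated in hereditary spastic paraplegia and amyotrophic lateral sclerosis, had 4226 and 3735 CPM in sham libraries 0 and 1 and 4210 and 3562 CPM in rmTBI libraries 0 and 1 (log2 fold -0.03, SE 0.16). Its 9 peaks, which span the 5' UTR, the coding sequence and the 3' UTR, had log2 folds from -0.08 to 0.04. The groups overlapped, and no stretch of the transcript stood apart from the rest.

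Kif5b, the heavy chain made in most cell types, had 2194 and 1609 CPM in sham and 1825 and 1323 CPM in rmTBI (log2 fold -0.27, SE 0.23). Kif5c, a neuronal heavy chain, had 1474 and 1102 CPM in sham and 1491 and 1088 CPM in rmTBI (log2 fold 0.00, SE 0.22). In both genes library 0 was the higher of each group, and the groups overlapped. Between libraries of the same number, the log2 ratio of rmTBI over sham was -0.27 (number 0) and -0.28 (number 1) for Kif5b. For Kif5c it was 0.02 and -0.02. Kif5b has peaks on both strands that share reads; joined regardless of strand, it had 1027 and 692 CPM in sham and 858 and 573 CPM in rmTBI, with a log2 fold of -0.26.

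The light chains link kinesin-1 to cargo. Klc1, the neuronal light chain, had 614 and 452 CPM in sham and 692 and 506 CPM in rmTBI (log2 fold 0.17, SE 0.23). Klc2 had 225 and 161 CPM in sham and 199 and 157 CPM in rmTBI (log2 fold -0.12, SE 0.24). Both overlapped between the groups, and Klc4, with 15.1 and 11.3 CPM in sham and 15.5 and 11.4 CPM in rmTBI, did too.

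Kinesin-3 motors carry synaptic vesicle precursors and other membrane cargo. Kif1a, their best known neuronal member, had 949 and 760 CPM in sham and 914 and 752 CPM in rmTBI (log2 fold -0.04, SE 0.19). Kif1b, which has splice forms for mitochondria and for synaptic vesicle precursors, had 900 and 774 CPM in sham and 941 and 753 CPM in rmTBI (log2 fold 0.02, SE 0.19). Neither separated the groups.

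Kif1c, a kinesin-3 of long-range vesicle transport, stood apart from these. It had 283 and 219 CPM in sham and 210 and 169 CPM in rmTBI (log2 fold -0.40, SE 0.22, unadjusted p = 0.105), so that both rmTBI libraries lay below both sham libraries. Without sham library 0 the log2 fold was -0.20, and without rmTBI library 0 it was -0.59. Its 7 peaks, between positions 70708550 and 70729150 of chromosome 11, had log2 folds from -0.52 to -0.31, in the coding sequence and in the 3' UTR. These peaks overlap in part and are not independent.

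Of the other membrane carriers, Kif13a, which moves endosomal and Golgi-derived vesicles, had 103 and 94.97 CPM in sham and 96.4 and 80.4 CPM in rmTBI (log2 fold -0.16). Kif13b had 22.9 and 30.3 CPM in sham and 17.2 and 24.9 CPM in rmTBI (log2 fold -0.34), and Kif16b, a motor of early endosomes, had a log2 fold of -0.03. The 13 kinesins listed for axonal and dendritic cargo were all tested, and 0 were called by edgeR (0 at an unadjusted p under 0.05) or by DESeq2. Of these, 4 lay above 0 and 9 below, with a median of -0.04.

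Kinesin-2 drives intraflagellar transport in cilia and carries cargo in neurons. Kif3a had 590 and 603 CPM in sham and 668 and 617 CPM in rmTBI (log2 fold 0.11, SE 0.16). Kif3b, its partner in the heterodimer, had 293 and 286 CPM in sham and 306 and 324 CPM in rmTBI (log2 fold 0.12, SE 0.17). In both genes the rmTBI libraries lay just above the sham libraries, while Kif3c, the alternative partner, had 581 and 484 CPM in sham and 532 and 456 CPM in rmTBI (log2 fold -0.11) and overlapped. The sign of Kif3a rested on its long coding peak (log2 fold 0.11), since its 2 overlapping 3' UTR peaks had log2 folds of -0.09 and -0.11.

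Kif21a and Kif21b are kinesin-4 motors that slow the growth of microtubule ends. Kif21a had 791 and 901 CPM in sham and 832 and 872 CPM in rmTBI (log2 fold 0.01, SE 0.16), and the groups overlapped. Kif21b, a neuronal regulator of microtubule dynamics and dendrite shape, had 179 and 160 CPM in sham and 234 and 204 CPM in rmTBI, a log2 fold of 0.37 (SE 0.19, unadjusted p = 0.0925). Both rmTBI libraries lay above both sham libraries, and all 8 peaks of Kif21b had a log2 fold above 0, from 0.16 to 0.51. They ran from position 136152313 to 136177129 of chromosome 1 on the plus strand, 5 in the coding sequence and 3 in the 3' UTR. They form 5 groups of overlapping peaks and are not independent.

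Kif26b, an atypical kinesin without motor activity, had 36.4 and 36.3 CPM in sham and 25.03 and 31.9 CPM in rmTBI (log2 fold -0.35, SE 0.23), with both rmTBI libraries lower. For microtubule ends or without known transport cargo, 5 of the 11 kinesins listed had a peak; edgeR called 0 (0 at an unadjusted p under 0.05), and DESeq2 called 0.

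Of the kinesins with a mean of at least 5 CPM, the 2 with the lowest fold are ciliary. Kif27, a relative of the fly protein Costal2 linked to motile cilia, had 9.20 and 8.99 CPM in sham and 5.68 and 5.99 CPM in rmTBI (log2 fold -0.64, SE 0.29, unadjusted p = 0.0635). Kif6, which is found in motile cilia, had 26.6 and 17.2 CPM in sham and 19.7 and 13.3 CPM in rmTBI (log2 fold -0.41, SE 0.32). The groups separated for Kif27 and overlapped for Kif6. Of the 9 listed ciliary kinesins, 7 had a peak and were tested, with a median of -0.20, 3 above 0 and 4 below, and 0 were called by edgeR (0 at an unadjusted p under 0.05) or by DESeq2.

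Most of the measured markers of ependyma and choroid plexus lay lower in rmTBI, as Kif27 did. The ciliary kinesins Kif3a, Kif3b and Kif7 lay higher. Kif7 had 1.14 and 1.90 CPM in sham and 2.90 and 2.78 CPM in rmTBI (log2 fold 0.87, SE 0.52). Of the 8 markers, 5 had a peak and 4 of them lay lower in rmTBI. EdgeR called 1 of the 5, against 0.127% of all genes, and DESeq2 called 2, against 0.656%. The 5 summed to 82.3 and 94.8 CPM in sham and to 23.5 and 27.5 CPM in rmTBI. Kcnj13, Tmem212 and Ttr had no peak, and Foxj1, the regulator of motile cilia, had a log2 fold of 0.65. Their part in the result was not tested.

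Mitotic kinesins, which build the spindle of dividing cells, were close to the floor of the data: 3 of the 11 listed had a peak (Kif11, Kif20b and Kif22). Their summed level was 3.63 and 5.93 CPM in sham and 2.78 and 6.29 CPM in rmTBI, and the groups overlapped.

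Dynein and dynactin stood close to their sham values. The median log2 fold over the 11 genes was -0.02 (interquartile range -0.03 to 0.06), with 5 above 0 and 6 below, and 9 of the 11 lay within 0.25 of 0. The edgeR quasi-likelihood test called 0 genes and 0 of 26 peaks, and 0 of either reached an unadjusted p under 0.05. Dync1i1 was the one gene of this family whose groups did not overlap (9.09%, against 25.5% of all genes). Each library left out in turn moved the median between -0.16 (without rmTBI library 0) and 0.16 (without rmTBI library 1).

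Dync1h1, the heavy chain with the motor domain of cytoplasmic dynein 1, had 384 and 334 CPM in sham libraries 0 and 1 and 385 and 344 CPM in rmTBI libraries 0 and 1 (log2 fold 0.02, SE 0.18). The libraries of the same number were nearly equal between the groups. The intermediate chains tie the motor to dynactin and cargo. Dync1i1, the intermediate chain found mainly in neurons, had 175 and 148 CPM in sham and 232 and 178 CPM in rmTBI (log2 fold 0.35, SE 0.21, unadjusted p = 0.147). Its lower rmTBI library and its higher sham library were nearly level, and the log2 fold was 0.13 without rmTBI library 0 and 0.53 without rmTBI library 1. It rested on 1 coding peak of the sham set (chromosome 6, 5725847 to 5767075, plus strand).

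Dync1i2, the intermediate chain found in most cells, had 203 and 175 CPM in sham and 224 and 160 CPM in rmTBI (log2 fold 0.02, SE 0.23). The 2 libraries of rmTBI lay outside those of sham on either side. The light intermediate chains bind adaptor proteins. Dync1li1 had 182 and 111 CPM in sham and 173 and 104 CPM in rmTBI (log2 fold -0.08, SE 0.33), and Dync1li2 had 220 and 172 CPM in sham and 219 and 156 CPM in rmTBI (log2 fold -0.06, SE 0.24). For both, the difference between the libraries of 1 group was larger than that between the groups.

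Dync2h1, the heavy chain of the dynein of intraflagellar transport, had 27.4 and 20.9 CPM in sham and 36.0 and 21.8 CPM in rmTBI (log2 fold 0.26, SE 0.31), and the groups overlapped. The other 3 listed subunits of dynein 2 had no peak. Of 15 axonemal dynein heavy chains, the motors that beat cilia, 5 had a peak and 4 were tested, 2 above 0 and 2 below. EdgeR and DESeq2 each called 0 of them, with 0 at an unadjusted p under 0.05.

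Dynactin activates dynein and holds it to cargo. Dctn1, the large subunit that binds microtubules and is mutated in Perry syndrome, had 1471 and 1249 CPM in sham and 1430 and 1239 CPM in rmTBI (log2 fold -0.03, SE 0.17). Dctn2, the shoulder subunit known as dynamitin, had 225 and 190 CPM in sham and 234 and 176 CPM in rmTBI (log2 fold -0.02, SE 0.22). Both overlapped, and the 5 peaks of Dctn1 had log2 folds from -0.07 to 0.03.

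The small subunits behaved alike in size. Dctn3 had 24.98 and 25.8 CPM in sham and 24.2 and 30.4 CPM in rmTBI (log2 fold 0.11, SE 0.23). Dctn6, at the pointed end of the complex, had 130 and 96.7 CPM in sham and 117 and 105 CPM in rmTBI (log2 fold -0.03, SE 0.22). Dctn5 had 51.1 and 37.4 CPM in sham and 46.8 and 39.8 CPM in rmTBI (log2 fold -0.03, SE 0.24). The groups overlapped for all 3, and Dctn4 had no peak.

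Among motor genes with a mean of at least 5 CPM, the 3 lowest log2 folds (Myh15, Myh14 and Myo5c) and the 2 highest (Myh3 and Myo16) were those of myosins. Myh3 passed this minimum with a mean of 6.59 CPM in rmTBI and 3.52 CPM in sham. The median log2 fold of the 25 genes tested was 0.03 (interquartile range -0.23 to 0.25), with 13 above 0 and 12 below. The groups did not overlap for 7 higher and 7 lower genes (56.0%, against 25.5% of all genes), with Myh1, Myh8 and Myo3b among them below a mean of 5 CPM. The edgeR quasi-likelihood test called 0 genes and 0 of 131 peaks; unadjusted, 1 gene lay higher and 3 lay lower. The smallest adjusted p was that of Myh14. Each library left out in turn moved the median between -0.15 (without rmTBI library 0) and 0.06.

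Myh14 encodes the heavy chain of non-muscle myosin IIC, which contracts actin filaments and is mutated in a dominant form of deafness. It had 197 and 195 CPM in sham libraries 0 and 1 and 120 and 113 CPM in rmTBI libraries 0 and 1. The means were 196 ± 1.90 and 117 ± 5.16 CPM (SD, n = 2), and the libraries within each group lay close together. The log2 fold was -0.75 (SE 0.18), with an unadjusted p of 0.00452 and an adjusted p of 0.510 by edgeR's quasi-likelihood test, which does not pass the threshold. Libraries numbered 0 gave a log2 ratio of -0.71 and libraries numbered 1 gave -0.78.

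The 4 peaks of Myh14 are all in the coding sequence, between positions 44613489 and 44630734 of chromosome 7 on the minus strand, and form 2 groups of overlapping peaks. Their log2 folds ran from -0.80 to -0.72. At the longer peak of the upstream group (44625112 to 44630734) there were 69.4 and 72.1 CPM in sham and 41.6 and 41.2 CPM in rmTBI, and at that of the downstream group (44613489 to 44621825) there were 54.4 and 44.3 CPM in sham and 33.9 and 26.1 CPM in rmTBI. Both groups of peaks lay lower in both rmTBI libraries.

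Some of the listed cell type markers lay lower in rmTBI, as Myh14 did, and others did not. The 11 of 13 oligodendrocyte markers with a peak all lay lower in rmTBI, with summed levels of 2441 and 2284 CPM in sham and 1568 and 1424 CPM in rmTBI (Cldn11 and Mag had no peak). The 7 of 8 thalamic markers with a peak summed to 1050 and 1241 CPM in sham and to 195 and 226 CPM in rmTBI (Prkcd had no peak), and the 7 striatal markers to 1208 and 1125 CPM in sham and to 603 and 553 CPM in rmTBI. The 9 cortical excitatory markers summed to 4508 and 4146 CPM in sham and to 5989 and 5403 CPM in rmTBI. Of the 7 astrocyte markers with a peak, 2 lay above 0 and 5 below, with a median log2 fold of -0.13. Of the 7 microglial markers with a peak, 6 lay above 0 and 1 below, with a median of 0.41. The part of these markers in the result was not tested.

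The other non-muscle heavy chains stood nearer to 0. Myh10, non-muscle myosin IIB, the form that shapes dendritic spines, had 2031 and 1860 CPM in sham and 1909 and 1721 CPM in rmTBI (log2 fold -0.10, SE 0.16). Its 13 peaks had log2 folds from -0.17 to -0.04, all below 0, while sham and rmTBI overlapped at the gene level. They form 6 groups of overlapping peaks and are not independent. Myh9, non-muscle myosin IIA, had 651 and 503 CPM in sham and 749 and 545 CPM in rmTBI (log2 fold 0.16, SE 0.22) and also overlapped.

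Myh11, the heavy chain of smooth muscle in vessel walls, had 94.2 and 95.6 CPM in sham and 122 and 114 CPM in rmTBI. The log2 fold was 0.31 (SE 0.19, unadjusted p = 0.141), both rmTBI libraries lay above both sham libraries, and all 10 peaks lay above 0, from 0.15 to 0.59. These peaks form 5 groups of overlapping peaks and are not independent. Of the 8 markers listed for mural cells and smooth muscle, 4 had a peak, Myh11 among them, and summed to 255 and 252 CPM in sham and to 269 and 250 CPM in rmTBI. The other 3 (Abcc9, Pdgfrb and Rgs5) lay between -0.29 and -0.03, and Acta2, Cnn1, Kcnj8 and Tagln had no peak.

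Striated muscle heavy chains drive contraction of skeletal and cardiac muscle, and 7 of the 10 listed had a peak in these cortex libraries. Myh3, the embryonic skeletal form, had 2.95 and 4.10 CPM in sham and 6.41 and 6.77 CPM in rmTBI (log2 fold 0.89, SE 0.36, unadjusted p = 0.0428, adjusted p = 1). Myh15 had 10.6 and 10.9 CPM in sham and 4.72 and 7.38 CPM in rmTBI (log2 fold -0.81, SE 0.32, unadjusted p = 0.0426, adjusted p = 1), from a single coding peak of 13955 bases on chromosome 16. The 2 genes lay on opposite sides, each with no overlap between the groups. By DESeq2, neither Myh3, Myh15 nor Myo5c had an unadjusted p under 0.05.

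Myh7, the slow and cardiac form, had 218 and 231 CPM in sham and 259 and 225 CPM in rmTBI (log2 fold 0.11, SE 0.18), and the groups overlapped. It shares nearly identical sequence with Myh6, so the split of reads between them is uncertain, and its peaks on both strands share reads (105 and 112 CPM in sham and 126 and 108 CPM in rmTBI when joined). Myh1, Myh6 and Myh8 were below 3 CPM in every library. Of the 8 listed skeletal muscle markers, Myh1 and Ttn had a peak and both lay lower in rmTBI, as Myh15 did and Myh3 did not. Ttn, the giant elastic protein of the sarcomere, had 4.77 and 5.56 CPM in sham and 2.18 and 2.60 CPM in rmTBI (log2 fold -1.10, edgeR unadjusted p = 0.0272, adjusted p = 1). Myh1 had 1.82 and 1.47 CPM in sham and 1.21 and 0.484 CPM in rmTBI (log2 fold -1.03). Their part in the values of Myh3 and Myh15 was not tested, and Acta1, Ckm, Myh2, Myh4, Mylpf and Tnnt3 had none.

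Class V myosins carry organelles along actin. Myo5a, which brings endoplasmic reticulum into the spines of Purkinje cells, had 1066 and 926 CPM in sham and 1002 and 834 CPM in rmTBI (log2 fold -0.12, SE 0.18). Myo5b, a motor of recycling endosomes that carry AMPA receptors, had 123 and 97.4 CPM in sham and 154 and 120 CPM in rmTBI (log2 fold 0.31, SE 0.23). Myo5c, known from secretory epithelia, had 9.99 and 9.60 CPM in sham and 6.29 and 5.93 CPM in rmTBI (log2 fold -0.68, SE 0.28, unadjusted p = 0.0478, adjusted p = 1). Only Myo5c of the 3 had groups that did not overlap, although all 7 peaks of Myo5b lay above 0 (0.21 to 0.45). The peaks of Myo5b form 4 groups of overlapping peaks and are not independent.

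Myo16, a neuronal myosin that links to phosphoinositide 3-kinase signalling and the actin cytoskeleton, had 18.1 and 13.9 CPM in sham and 21.9 and 24.5 CPM in rmTBI (log2 fold 0.54, SE 0.26, unadjusted p = 0.0715). Both rmTBI libraries lay higher, and 2 overlapping coding peaks at positions 10562181 to 10569696 of chromosome 8 carried this. At the one of the rmTBI set there were 8.63 and 5.85 CPM in sham and 11.4 and 11.5 CPM in rmTBI (log2 fold 0.67, SE 0.29). Its other 3 peaks, with the start peak shown above, had at most 1.08 CPM in a library and log2 folds from -0.08 to 0.16.

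Myo6, the myosin that walks toward the minus end of actin and works in endocytosis, had 354 and 407 CPM in sham and 332 and 349 CPM in rmTBI (log2 fold -0.16, SE 0.17). Its groups separated by a gap smaller than the one between its sham libraries. Myo10, a motor of filopodia, had 88.0 and 137 CPM in sham and 97.2 and 169 CPM in rmTBI (log2 fold 0.24, SE 0.33). In Myo10 library 1 was the higher of each group, and the groups overlapped.

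Myo18a, a myosin with a PDZ domain and little motor activity of its own, had 1029 and 921 CPM in sham and 1121 and 952 CPM in rmTBI (log2 fold 0.09, SE 0.17). Myo9a and Myo9b, which carry a GTPase-activating domain, had log2 folds of 0.10 and 0.25. Myo9a had 455 and 480 CPM in sham and 487 and 514 CPM in rmTBI, and Myo9b had 40.2 and 43.8 CPM in sham and 48.8 and 50.8 CPM in rmTBI. Both Myo9 genes lay higher in both rmTBI libraries, and Myo18a overlapped. Myo1e, a class I myosin that tethers membranes to actin, had 42.2 and 28.8 CPM in sham and 33.1 and 27.6 CPM in rmTBI (log2 fold -0.23, SE 0.27).

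**Figure D2:**
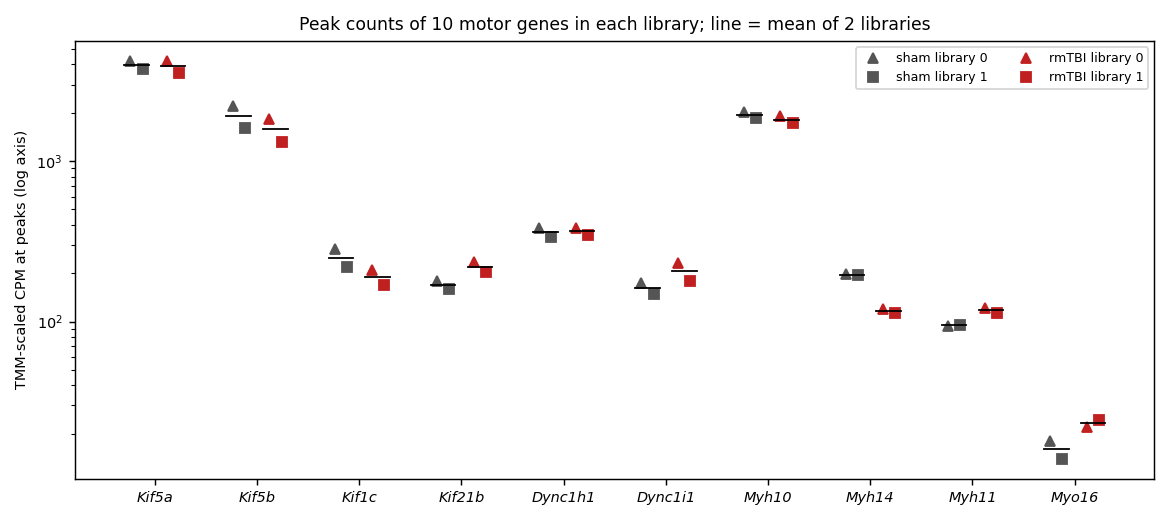
Counts at peaks, in TMM-scaled CPM on a log axis, of 10 motor genes in each of the 4 libraries; grey symbols are sham, red symbols rmTBI, triangles library 0, squares library 1, and lines the mean of the 2 libraries of a group. The groups separate for Kif1c, Kif21b, Dync1i1, Myh14, Myh11 and Myo16, and overlap for Kif5a, Kif5b, Dync1h1 and Myh10.

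The peaks of motor genes lay in the coding sequence more often than peaks in the table as a whole. By the authors' class, 74.8% of the 286 motor peaks were coding, 20.3% in the 3' UTR and 4.90% in the 5' UTR, against 50.4%, 39.7% and 6.24% of all peaks. The coding share was 67.2% in kinesins, 80.8% in dynein and dynactin and 81.1% in myosins, and the 3' UTR share 27.3%, 19.2% and 13.6%. These shares are a description, because peaks of 1 gene are not independent.

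Motor genes are long, with a median RefSeq span of 65070 bases against 29302 for all genes, and their peaks spanned more of the genome. A motor peak covered a median of 855.5 bases and a peak in general 330 bases, and 18.5% of motor peaks against 10.3% of all ran over 5000 bases, which takes in introns. A motor gene had 4.40 peaks on average and a gene in general 3.26. Of the 286 motor peaks, 191 (66.8%) overlapped another peak of the same gene on the same strand, as did 67.5% of all peaks.

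**Figure D3:**
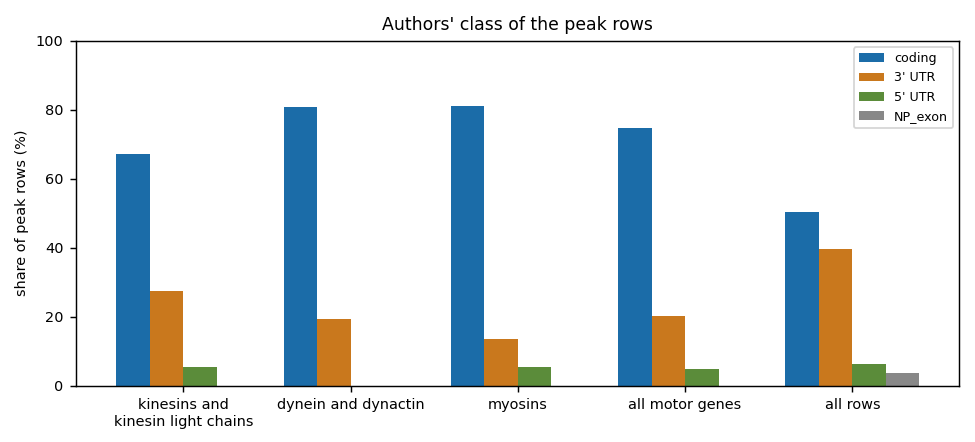
Share of peaks in each class of the authors' table, in percent, for the 3 families, all motor genes and all peaks; NP_exon is a class that the sources used here do not define. Coding peaks make up 67.2%, 80.8% and 81.1% of the 3 families and 50.4% of all peaks.

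The authors called peaks in each condition apart, and 162 motor peaks came from the sham set and 124 from the rmTBI set. Of all 33977 peaks, 17943 came from the sham set and 16034 from the rmTBI set. In 46 motor genes (70.8%, against 68.0% of all genes) both sets held a peak. The sham set alone held a peak for 17 motor genes (26.2%, against 19.0% of all genes), among them Dync1h1, Dync1i1, Dctn3, Kif6, Klc4, Myh3, Myh15 and Myo5c. The rmTBI set alone held a peak for 2, Kif19a and Myo3b (3.08%, against 13.01%). A set does not give the direction of the counts: Myh3 and Dync1i1, with peaks from sham alone, had more counts in rmTBI, and Myo3b, with a peak from rmTBI alone, had 3.86 and 2.02 CPM in sham and 1.09 and 1.39 CPM in rmTBI.

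The authors' deposited lists of differing peaks held 3 motor peaks, all in the higher list (0.815% of all peaks) and none in the lower list (0.43%). In the authors' deposited table these had a log2 fold of 2.28 (Kif26b, coding, p = 0.00150), 2.35 (Kif1b, 3' UTR, p = 0.0441) and 3.29 (Kif27, coding, p = 0.0334), each with an adjusted p of 0.998. The sources used here do not state the contrast behind the deposited values. Judged from the counts, they follow how far library 1 exceeds library 0 in rmTBI against how far it does so in sham. They do not follow rmTBI over sham.

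The counts at these 3 peaks, which are low, follow this pattern. The Kif26b peak (chromosome 1, 178914870 to 178915410) had 4.99 and 2.74 CPM in sham libraries 0 and 1 and 1.52 and 3.92 CPM in rmTBI libraries 0 and 1. The Kif1b peak (chromosome 4, 149180123 to 149180214) had 1.85 and 1.21 CPM in sham and 0.379 and 1.22 CPM in rmTBI, and the Kif27 peak (chromosome 13, 58325964 to 58328888) had 0.856 and 1.02 CPM in sham and 0.0758 and 0.863 CPM in rmTBI. In each, rmTBI library 0 was the lowest of the 4, and the groups overlapped. The edgeR log2 folds of rmTBI over sham were -0.43, -0.82 and -0.83, opposite in sign to the deposited values.

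Motor genes also differed between the library numbers within a group. The median log2 ratio of library 1 over library 0 was -0.18 in sham and -0.20 in rmTBI over the motor genes, and 0.01 and 0.03 over all genes. It lay below 0 in both groups for 36 of the 63 motor genes (57.1%, against 36.3% of all genes) and above 0 in both for 13. In dynein and dynactin, 10 of 11 genes lay below 0 in both groups, in kinesins 16 of 27 and in myosins 10 of 25. The sources used here do not say what the numbers 0 and 1 mean.

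Single genes kept this ratio from one group to the other. Dync1li1 had a log2 ratio of library 1 over library 0 of -0.71 in sham and -0.73 in rmTBI. On the other side, Myo10 had 0.64 and 0.80 and Kif13b 0.40 and 0.53. In all 3 genes this ratio was larger in size than the fold of rmTBI over sham.

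**Figure D4:**
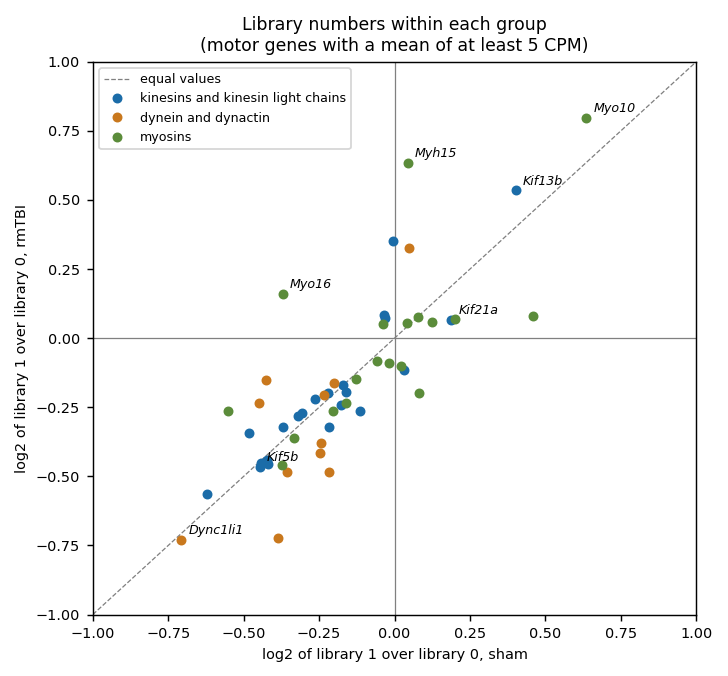
Log2 ratio of library 1 over library 0 in sham (horizontal) and in rmTBI (vertical) for 52 motor genes with a mean of at least 5 CPM; each point is a gene, coloured by family, and the dashed line marks equal values. Below 0 in both groups lie 34 genes and above 0 in both lie 10, with Dync1li1 low and Myo10 high in both.

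Genes that work with the motors were likewise not called. Of 21 genes listed as kinesin partners, such as cargo adaptors, 18 were tested, with 10 above 0 and 8 below (median 0.03). This list also holds Kifc1, Kifc2 and Kifc3, which are kinesin motors that the rule on symbols leaves out. Of 16 dynein adaptors and regulators, 12 were tested, with 9 above and 3 below (median 0.09), Pafah1b1, the lissencephaly gene Lis1, at 0.04. Of 13 small subunits of dynein and dynactin, 7 were tested, with 4 above and 3 below (median 0.08). Of 25 myosin light chains, kinases and adaptors, 17 were tested, with 13 above and 4 below (median 0.04). In these 4 lists edgeR and DESeq2 called 0 genes, and 0 reached an unadjusted p under 0.05 in either, while the median over all genes was 0.01. Ppp1r12b, a targeting subunit of myosin phosphatase and the highest of the myosin list, had 257 and 184 CPM in sham and 324 and 250 CPM in rmTBI (log2 fold 0.38), and its groups overlapped.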

How the data were processed

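The authors deposited a table of peaks with whole-number counts per peak and library, not normalized, and a log2 fold change, p-value and adjusted p-value per peak from an unnamed test. Per the submitters' processing notes, STAR, DESeq2 and GRCm39 were used, with no version or role; the sources used here name neither the peak caller nor the read counter. Deposited coordinates were taken as GRCm38 because all 286 motor peaks overlapped their gene in RefSeq GRCm38.p6. Peaks were called per condition, per the file headers, and stacked.

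Counts were tested for rmTBI against sham with edgeR 4.0.16 in R 4.3.3: the quasi-likelihood F-test after filterByExpr and TMM scaling. P-values were adjusted by Benjamini-Hochberg across 33415 peaks or 10214 genes, with calls at an adjusted p under 0.05. The SE of a log2 fold is its size over the square root of F. A gene value sums 1 peak (the highest mean count) per group of peaks that overlap by at least 1 base on the same strand. Strand was hardly used in counting: of 122 pairs of near-identical peaks on opposite strands of a gene, 104 had the same counts in all 4 libraries within 5% or 2 counts. For 4 motor genes (Kif1bp, Kif3c, Kif5b and Myh7) the sum therefore holds some reads more than once. Log2 ratios within a library number used CPM plus 0.1.

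The members and lists were chosen with earlier results of these data known. Per-library values are given for genes called and for the 3 highest and 3 lowest log2 folds per family with at least 5 CPM. They are also given for the 3 highest levels per family, for members of fixed roles and for peaks in the authors' lists. Beyond these, Kif3c, Kif7, Kif13a, Kif13b, Kif16b, Klc4, Dctn5, Myh1, Myh7, Myo1e, Myo3b, Myo9a, Myo9b, Ttn and Ppp1r12b were chosen after their values were seen. Alternatives were the library number as a block, library-size scaling, DESeq2 1.42.0, other count filters, each library left out and other gene summaries. The procedure was run on simulated counts with a fixed spread and no effect of the library number, which these libraries need not share. The authors' joint list of differing peaks, which breaks off in its last line, was not used. One member gene is counted but not reported here by name.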

Additional observations from a re-analysis of the deposited data

How the results depend on the processing

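Under library-size scaling, DESeq2, no filter, at least 10 counts in every library, each library left out, and the other gene summaries run (sums over all peaks, groups joined at 50% reciprocal overlap and, chosen after seeing the data, groups joined regardless of strand), 0 motor genes and 0 motor peaks were called. With the library number as a replicate block, 18 kinesin peaks, 1 dynein peak and 19 myosin peaks were called (10.6% of all peaks), and 5 kinesin genes, 1 dynein gene (Dync1i1) and 11 myosin genes (14.4% of all genes). The 17 genes, 9 of them higher, include Kif1c, Kif21b, Kif5b, Myh14, Myh11 and Myo16. Same-numbered libraries deviated together (correlation 0.40 over 10415 genes), but with 2 pairs the samples share only a number. The block also leaves fewer residual degrees of freedom to measure spread than the 2 of the main fit.

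The kinesin median was -0.054 under library-size scaling and 0.0040 with the median over peaks, and ranged from -0.20 to 0.075 with a library left out; the ranges were -0.16 to 0.16 for dynein and dynactin and -0.15 to 0.059 for myosins. Log2 folds near 0 changed sign. Under library-size scaling this held for Dync1i2 (-4.9e-06), Kif1b (-0.0015), Kif21a (-0.0092) and Kif5c (-0.017), under the replicate block for Dync1i2 (-0.0015) and Kif5c (-0.0011), under the count minimum for Kif5c (-0.0033), and with the median over peaks for Kif3a (-0.093) and Kif5a (0.017). With a library left out, the sign changed for 20 of the 38 genes that the naming rule chose: Dctn1 -0.15 to 0.096, Dctn2 -0.26 to 0.18, Dctn3 -0.070 to 0.24, Dctn6 -0.23 to 0.20, Dync1h1 -0.081 to 0.13, Dync1i2 -0.26 to 0.25, Dync1li1 -0.51 to 0.32, Dync1li2 -0.34 to 0.16, Dync2h1 -0.16 to 0.58, Kif1a -0.20 to 0.13, Kif1b -0.17 to 0.17, Kif21a -0.081 to 0.11, Kif5a -0.18 to 0.082, Kif5c -0.26 to 0.23, Klc1 -0.096 to 0.41, Klc2 -0.34 to 0.14, Myh9 -0.10 to 0.38, Myo10 -0.21 to 0.60, Myo18a -0.053 to 0.20 and Myo5a -0.27 to 0.010. The sign held but the value moved by over 1.5 times for 9 others: Dync1i1 0.13 to 0.53, Kif1c -0.59 to -0.20, Kif26b -0.54 to -0.21, Kif3a 0.028 to 0.16, Kif5b -0.54 to -0.029, Kif6 -0.73 to -0.069, Myh10 -0.20 to -0.026, Myo5b 0.10 to 0.49 and Myo6 -0.26 to -0.056. The cause was not tested. Depth limits the low genes, where 1 to 3 counts move a value.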
